A study of Mus musculus with 8 samples.

Results

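The semaphorins, ephrins, slits and netrins are ligands that steer migrating cells and growing axons, and the plexins, Eph receptors, Robo receptors and Unc5 receptors are the proteins that read them. They were taken from the deposited count table by gene name, as protein-coding rows named Sema3 to Sema7 with a letter, Plxn, Eph, Efn, Slit, Robo, Ntn or Unc5. This gave 66 of the 35275 rows, of which 35 were ligands (20 semaphorins, 8 ephrins, 3 slits and 4 netrins) and 31 were receptors (9 plexins, 14 Eph receptors, 4 Robo receptors and 4 Unc5 receptors). The rule used gene names and gene type, not measured levels. All 8 families were present in the table, and 48 of the 66 genes had enough counts to be tested.

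The libraries came from a mouse epicardial cell line, a culture of the layer that covers the heart. In 4 libraries the cells carried an empty lentiviral vector (EV), and in 4 they carried a lentivirus with a guide RNA against Hdac3, a histone deacetylase, for CRISPR/Cas9 knockout (KO). All cells of both groups were transduced with lentivirus and grown in a high-glucose medium with serum. KO replicate 1 is a knockout by its title, but its characteristics name the empty vector. Libraries were grouped by title, and each result is also given without that library where the call changes. The labels do not say whether the KO cells were 1 clone or a pool, or whether replicates were separate cultures, so p-values measure only the spread between these libraries, which may be technical.

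Secreted class 3 semaphorins bind neuropilins that pair with A-type plexins, whereas class 4 and class 6 semaphorins are anchored in the membrane and bind plexins directly. Plexins act on the cytoskeleton through small GTPases, and the usual outcome is that a cell retracts or turns away. Ephrins are membrane-bound ligands of the Eph receptor tyrosine kinases and signal between touching cells in both directions. Slits are large secreted proteins whose binding to Robo receptors repels cells, and netrins attract through Dcc-type receptors or repel through Unc5 receptors. In the heart these systems take part in septation of the outflow tract, in vessel patterning and in the growth and placing of the epicardium and its derivatives.

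The comparison asked which of these transcripts differ between the Hdac3 knockout and the empty-vector cells. Of the 48 tested genes, 17 rose and 8 fell in KO in edgeR's quasi-likelihood test with a Benjamini-Hochberg adjusted p below 0.05 over all tested genes. Among all 12801 genes tested, 26.0% passed, 12.6% higher and 13.4% lower, against 35.4% higher and 16.7% lower among the 48. The largest fall was that of the transmembrane semaphorin Sema6a, and the largest rises with at least 5 CPM (counts scaled so that libraries share 1 total) were those of the receptor Epha4 and the secreted ligand Slit2. Changes were mostly small, with a median absolute log2 fold change of 0.34 among the 25 genes that passed. The median log2 fold change over the 48 tested genes was 0.064, and it was 0.005 over all tested genes. Of 27 tested ligands 10 rose and 4 fell (51.9% in all), and of 21 tested receptors 7 rose and 4 fell (52.4%).

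The split between rises and falls was scaling-dependent. When libraries were scaled by their totals alone and not by TMM factors, which correct for library composition, 11 of the 48 genes rose and 10 fell, while over all genes 1039 rose and 2414 fell. With that scaling the rises of Efnb2, Sema3e, Sema4c, Plxna1, Plxna2 and Ephb4 did not pass, and Sema3d and Plxnb1 passed as lower. Without KO replicate 1, the library with conflicting labels, 12 rose and 7 fell (1239 and 1382 over all genes). Without EV replicate 3, 11 rose and 7 fell (1284 and 1485 over all genes), and without KO replicate 2 the counts were also 11 and 7 (1426 and 1569 over all genes). No gene that passed changed direction in any alternative.

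**Figure D1:**
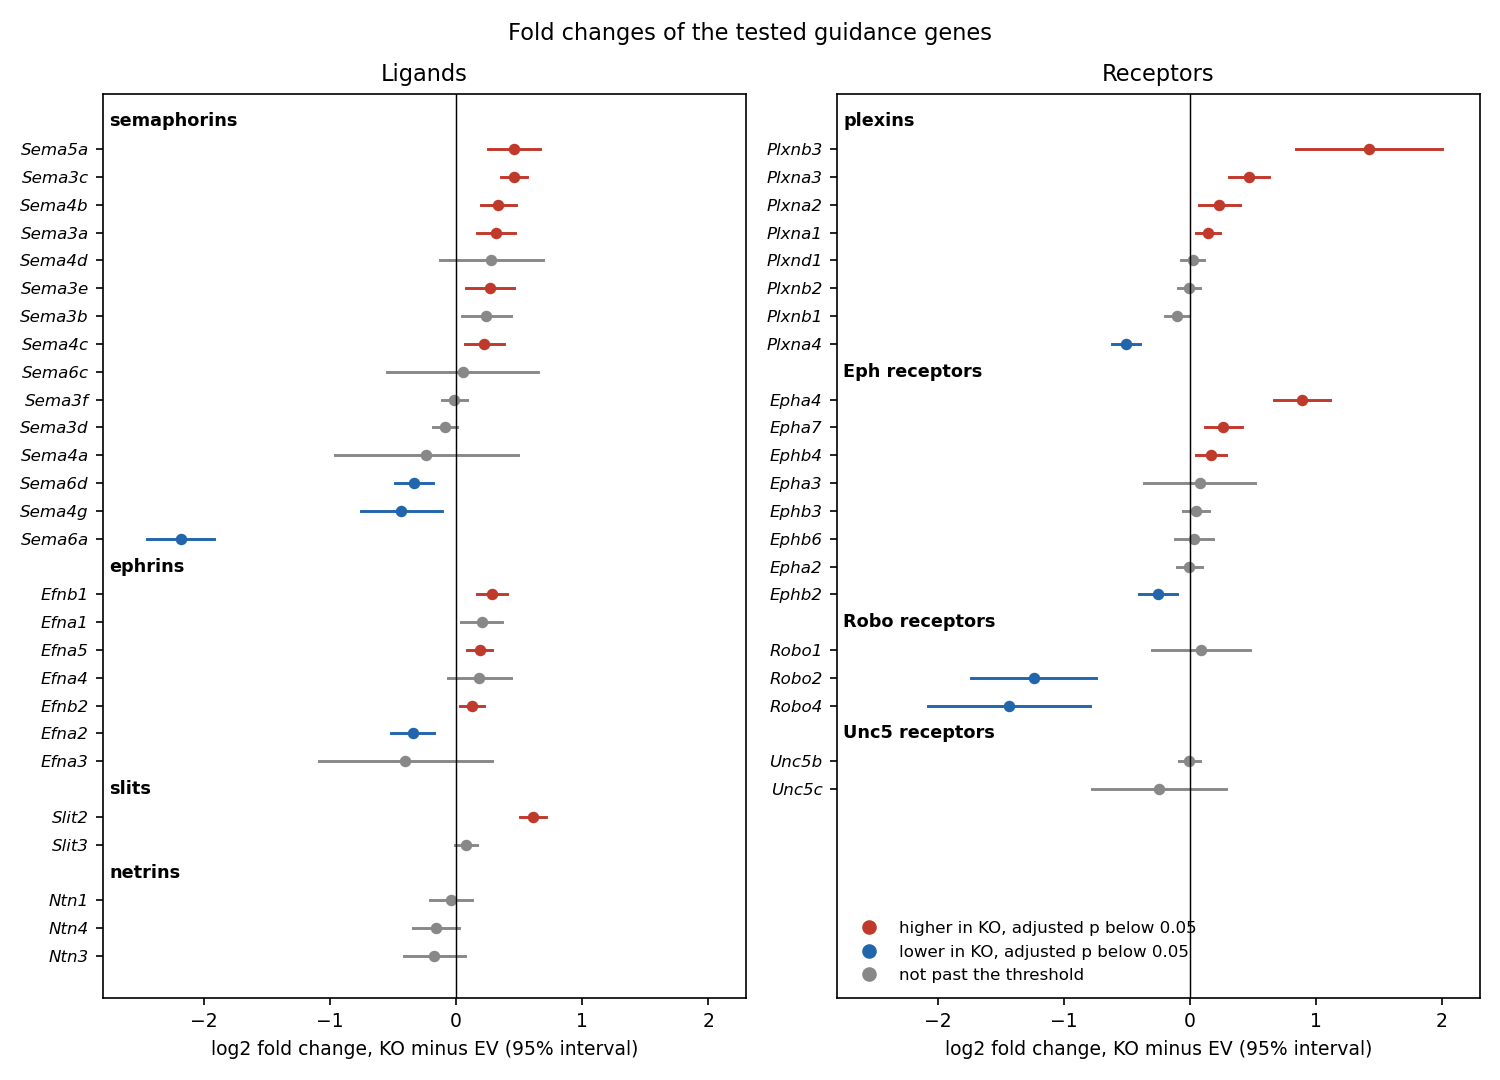
Log2 fold change of each tested gene, KO minus EV (x axis), with its 95% interval from edgeR over 4 EV and 4 KO libraries. Ligands are on the left and receptors on the right, by family, with genes past the adjusted p threshold in red (higher in KO) or blue (lower). Sema6a lies farthest to the left at −2.19 and Plxnb3 farthest to the right at 1.42.

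Where values are listed by library, they stand in the order of replicates 1 to 4, and levels are TMM-normalized CPM unless another unit is named. Library totals ran from 18063745 to 24564892 counts, and 3 counts corresponded to 0.125 to 0.164 CPM. Hdac3 itself stood at 60.3, 61.4, 64.0 and 61.7 CPM in EV and at 63.2, 56.9, 63.9 and 62.6 CPM in KO. These levels overlapped (edgeR adjusted p = 0.956), and since an edit can inactivate a protein and leave its transcript in place, they do not check the labels. The first principal component, with 56.9% of the variance, separated the groups (−16.6 to −10.9 in EV, 11.3 to 13.8 in KO). Of the epicardial markers, Wt1 stood at 341 ± 13.7 CPM in EV and 263 ± 8.43 CPM in KO (SD, n = 4 each; edgeR adjusted p = 3.17e-06), Upk3b fell from 1858 to 1465 CPM, Msln rose from 683 to 926 CPM, and Tbx18 was low in both groups (means of 16.1 and 16.9 CPM). Aldh1a2 was close to the detection limit (0.407 ± 0.0574 CPM in EV and 0.251 ± 0.138 CPM in KO). The summed levels of 20 liver markers ran from 8.52 to 11.5 CPM in EV and from 18.1 to 36.2 CPM in KO, with KO replicates 2 and 3 highest, 19 of 20 genes higher on average in KO and none at 0 in every library. Without these 2 libraries 9 guidance genes rose and 6 fell (880 and 1094 over all genes). The other marker lists summed, in EV and in KO, to 125 to 134 and 117 to 122 CPM for neuronal and glial genes (mostly Mbp, with Elavl4, Snap25 and Stmn2 at 0), 31.0 to 37.5 and 31.4 to 37.4 CPM for leukocyte genes, 986 to 1198 and 925 to 1122 CPM for smooth muscle and pericyte genes (4 of 7 tested fell), 146 to 158 and 113 to 130.0 CPM for cardiomyocyte genes (Nppa at 0), and 7515 to 7927 and 7438 to 7838 CPM for the 19 epicardial and mesothelial genes other than Sema3d. Behind this last pair of overlapping sums, 5 of 18 tested genes rose, among them Clu and Krt8, and 7 fell, among them Podxl, Bnc2 and Tcf21. Most of the cardiomyocyte sum was Tnnt2, which fell (145 ± 4.70 to 115 ± 7.27 CPM, edgeR adjusted p = 5.67e-05). Of the 11 cardiomyocyte genes, 5 were higher on average in KO. The part of these transcripts in the results was not tested. In a bulk culture, fewer cells of a type and less RNA per cell cannot be told apart.

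Among the secreted class 3 semaphorins, 3 of 6 tested rose in KO and 0 fell in edgeR, in DESeq2 and in limma-voom alike. At an edgeR p below 0.05 without adjustment, 4 were higher and 0 lower. The shares of all tested genes at that threshold were not counted. They are at least the 12.6% higher and 13.4% lower found after adjustment. Sema3c, a ligand needed for outflow tract septation (ENSMUSG00000028780, mm10 chromosome 5, 17574281 to 17730268), stood at 178, 170.5, 183 and 191 CPM in EV and at 236, 247, 239.7 and 268 CPM in KO. Every KO library lay above every EV library, a 1.37-fold rise from 181 ± 8.66 to 248 ± 14.4 CPM (SD, n = 4 each; log2 fold change 0.46 with SE 0.0499, edgeR adjusted p = 1.17e-06). Sema3a, a repellent that acts through Nrp1, stood at 59.6, 57.2, 65.8 and 74.3 CPM in EV and at 80.2, 82.4, 72.4 and 85.0 CPM in KO. EV replicate 4 lay above KO replicate 3, so the groups overlapped in this pair of libraries (log2 fold change 0.32 with SE 0.0718, edgeR adjusted p = 0.00278). Sema3e, which binds Plxnd1 without a neuropilin, was lower in level, with 12.3, 11.4, 10.9 and 12.5 CPM in EV and 13.4, 15.6, 13.3 and 14.4 CPM in KO. The groups did not overlap (log2 fold change 0.27 with SE 0.0913, edgeR adjusted p = 0.0358), but the call was lost when EV replicate 2 or 3 or KO replicate 2 or 4 was left out (edgeR adjusted p up to 0.107).

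Sema3f, a ligand of Nrp2, was the semaphorin with the highest level per gene length. It stood at 63.4 ± 1.71 FPKM in EV and 60.5 ± 3.27 FPKM in KO (SD, n = 4 each), where FPKM is counts scaled by gene length and by the total of the library. Its log2 fold change was −0.02 with a 95% interval from −0.11 to 0.08. Sema3d, an epicardial marker, stood at 169 ± 7.09 CPM in EV and 159 ± 6.47 CPM in KO (95% interval of the log2 fold change −0.19 to 0.01) and passed with library totals alone (log2 fold change −0.14, edgeR adjusted p = 0.0335). For Sema3b, every KO library (10.8 to 11.8 CPM) lay above every EV library (9.07 to 9.77 CPM), yet the edgeR adjusted p was 0.0603.

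The membrane-bound semaphorins moved in both directions. Sema4b was at 30.2, 26.0, 30.5 and 29.3 CPM in EV and at 34.8, 36.1, 38.5 and 36.7 CPM in KO. The groups were separate, and the gene rose 1.26-fold (log2 fold change 0.34 with SE 0.0660, edgeR adjusted p = 0.000807). For Sema4c, which binds Plxnb2, the values were 41.1, 42.3, 40.3 and 32.3 CPM in EV against 44.3, 48.9, 43.3 and 45.8 CPM in KO. EV replicate 4 lay well below the other EV libraries, and the rise (log2 fold change 0.22 with SE 0.0747, edgeR adjusted p = 0.0330) was lost when EV replicate 3 or 4 or KO replicate 1, 2 or 4 was left out (edgeR adjusted p up to 0.0979). Sema5a, which carries thrombospondin repeats in place of an immunoglobulin domain, had 13.3, 14.2, 16.0 and 16.2 CPM in EV and 19.7, 24.7, 18.6 and 19.2 CPM in KO. Its groups were also separate, with KO replicate 2 highest (log2 fold change 0.46 with SE 0.0980, edgeR adjusted p = 0.00171).

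Class 6 semaphorins, transmembrane ligands of A-type plexins, included the largest fall. Sema6a (ENSMUSG00000019647, mm10 chromosome 18, 47235598 to 47368870) stood at 13.0, 11.0, 10.8 and 10.8 CPM in EV and at 2.34, 2.25, 2.67 and 2.66 CPM in KO. No KO library came near an EV library, and the mean was 4.55-fold lower in KO (11.4 ± 1.08 against 2.48 ± 0.218 CPM, SD, n = 4 each; log2 fold change −2.19 with SE 0.126, edgeR adjusted p = 3.14e-10). These levels rested on 227 to 251 counts per EV library and 44 to 64 counts per KO library. Sema6d (ENSMUSG00000027200, mm10 chromosome 2, 124089969 to 124667770), whose product signals through Plxna1 in heart development, fell as well. It had 53.0, 52.4, 53.7 and 68.0 CPM in EV and 43.4, 45.7, 45.3 and 45.9 CPM in KO. EV replicate 4 stood apart above the other libraries, and the groups did not overlap with or without it (log2 fold change −0.33 with SE 0.0731, edgeR adjusted p = 0.00218; without EV replicate 4 the log2 fold change was −0.23). Sema4g, at 4.01 ± 0.431 CPM in EV and 2.95 ± 0.283 CPM in KO (SD, n = 4 each), was just past the threshold (log2 fold change −0.44, edgeR adjusted p = 0.0436). That call was lost in DESeq2 (adjusted p = 0.0727), in limma-voom (adjusted p = 0.0537) and without any 1 library except EV replicate 3.

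The other tested semaphorins, Sema4a, Sema4d and Sema6c, were near or under 3 CPM (0.318 to 3.18 CPM over all libraries) and their intervals were wide, from −0.96 to 0.49 for Sema4a. Of the 20 semaphorin genes, 5 could not be tested: Sema3g (at most 11 counts in a library), Sema7a (at most 4), Sema4f (at most 3), Sema6b (at most 1) and Sema5b (0 in every library).

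Plexins, the semaphorin receptors, gave 4 rises and 1 fall among 8 tested. All 4 A-type plexins passed, 3 of them higher and 1 lower. Plxna4 (ENSMUSG00000029765, mm10 chromosome 6, 32144268 to 32588192), a receptor for Sema3a with neuropilin and for Sema6a without it, stood at 522, 544, 588 and 600.3 CPM in EV. In KO it stood at 388, 434, 372 and 391 CPM. All EV libraries lay above all KO libraries, and the gene fell 1.42-fold (563 ± 36.9 to 396 ± 26.5 CPM, SD, n = 4 each; log2 fold change −0.51 with SE 0.0546, edgeR adjusted p = 1.01e-06). Per gene length it was the most abundant A-type plexin in both groups, at 44.5 ± 2.96 FPKM in EV and 30.2 ± 2.11 FPKM in KO, against 19.0 ± 0.293 and 20.2 ± 1.06 FPKM for Plxna1.

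Plxna3 (ENSMUSG00000031398, mm10 chromosome X, 74329066 to 74344689), the partner of Nrp2 for Sema3f, rose. Its levels were 17.9, 17.5, 16.0 and 18.1 CPM in EV and 24.0, 21.6, 24.9 and 25.4 CPM in KO, with no overlap (log2 fold change 0.47 with SE 0.0768, edgeR adjusted p = 0.000142). Plxna2, which binds Sema6a, had 22.8, 26.5, 22.4 and 26.9 CPM in EV and 29.6, 32.0, 27.7 and 26.9 CPM in KO. The lowest KO library was level with the highest EV library (log2 fold change 0.23 with SE 0.0788, edgeR adjusted p = 0.0346), and the call was lost when EV replicate 1 or 3 or KO replicate 1 or 2 was left out (edgeR adjusted p up to 0.120). Plxna1 had 173, 166, 168 and 167 CPM in EV and 185, 195, 173 and 188 CPM in KO. KO replicate 3 lay within the EV range (log2 fold change 0.14 with SE 0.0455, edgeR adjusted p = 0.0296), and the call was lost when EV replicate 2 or 3 or KO replicate 1, 2 or 4 was left out (edgeR adjusted p up to 0.0808).

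Among B-type plexins, which bind class 4 semaphorins, Plxnb2 was the most abundant of all 66 genes per gene length. It stood at 135 ± 4.09 FPKM in EV and 129 ± 2.50 FPKM in KO (SD, n = 4 each), and its log2 fold change of −0.01 had a 95% interval from −0.10 to 0.08. Plxnb3, a receptor of Sema5a, was scarce, at 0.629 ± 0.155 CPM in EV and 1.69 ± 0.316 CPM in KO, and rose with a log2 fold change of 1.42 (edgeR adjusted p = 0.000722) from 9 to 18 counts per library to 23 to 46 counts. Plxnb1, the receptor of Sema4d, stood at 92.7 ± 1.68 CPM in EV and 86.3 ± 2.39 CPM in KO. Its groups did not overlap, but it missed the threshold (edgeR adjusted p = 0.105) and passed as lower with library totals alone (edgeR adjusted p = 0.0171) and in the 3 limma fits on FPKM (adjusted p = 0.0295 to 0.0384). Plxnd1, the receptor of Sema3e, stood at 138 ± 2.78 and 139.5 ± 3.67 CPM (95% interval of the log2 fold change −0.07 to 0.11). Plxnc1, the receptor of Sema7a, reached at most 9 counts in a library and was not tested.

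**Figure D2:**
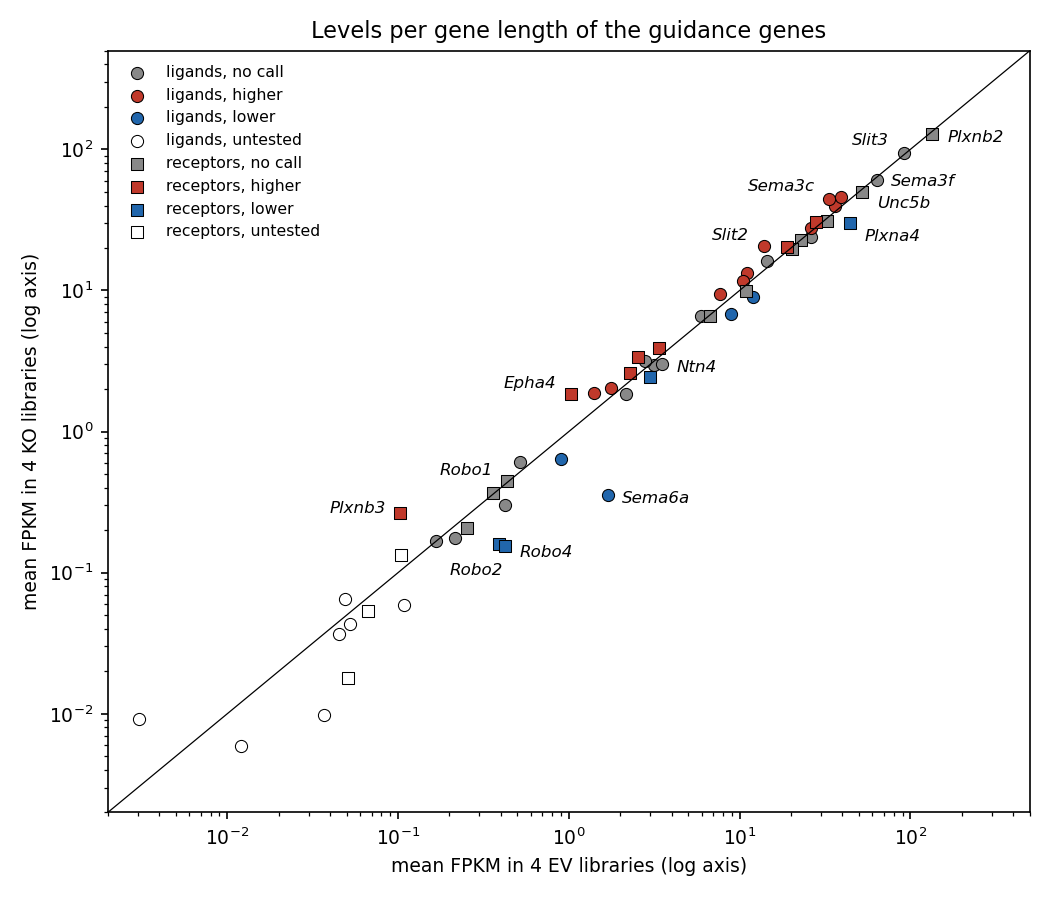
Mean FPKM of each guidance gene with counts in both groups, 4 EV libraries (x axis, log scale) against 4 KO libraries (y axis, log scale), with the line of equal levels. Circles are ligands and squares receptors, red or blue where the gene passed as higher or lower in KO, grey where it did not and white where it was not tested. Plxnb2 and Slit3 lie at the top near the line, Plxna4 and Sema6a below it and Slit2 above it.

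Ephrins, the membrane-bound ligands of Eph receptors, gave 3 rises and 1 fall among 7 tested. Efnb1, a transmembrane B-type ephrin (ENSMUSG00000031217, mm10 chromosome X, 99136130 to 99148991), was the ephrin with the highest level per gene length, at 39.4 ± 2.63 FPKM in EV and 46.3 ± 3.50 FPKM in KO. Its levels were 136, 126, 127 and 115 CPM in EV and 152, 169.6, 149 and 144 CPM in KO. The lowest KO library lay above the highest EV library (log2 fold change 0.28 with SE 0.0577, edgeR adjusted p = 0.00107). Efnb2, the arterial ephrin, had 110.0, 112, 112 and 111 CPM in EV and 122, 125, 114 and 126 CPM in KO. The groups were separate by a small margin at KO replicate 3 (log2 fold change 0.13 with SE 0.0451, edgeR adjusted p = 0.0409). The call was lost when EV replicate 1, 2 or 3 or KO replicate 1, 2 or 4 was left out (edgeR adjusted p up to 0.123), and with library totals alone (adjusted p = 0.219).

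Of the A-type ephrins, which are held in the membrane by a lipid anchor, Efna5 rose and Efna2 fell. Efna5 was at 137, 146, 145 and 149 CPM in EV and at 156, 172, 161 and 168 CPM in KO, without overlap (log2 fold change 0.19 with SE 0.0462, edgeR adjusted p = 0.00537). Efna2 was at 29.0, 24.0, 22.4 and 24.5 CPM in EV and at 20.5, 18.7, 20.3 and 19.1 CPM in KO. Every KO library lay below every EV library, and EV replicate 1 was the highest (log2 fold change −0.34 with SE 0.0813, edgeR adjusted p = 0.00392). Efna1 stood at 23.3 ± 1.58 CPM in EV and 26.9 ± 2.47 CPM in KO without overlap and just missed the threshold (log2 fold change 0.20, edgeR adjusted p = 0.0596). Efna4 (7.16 to 11.7 CPM over all libraries) and Efna3 (0.588 to 1.59 CPM) did not pass. The Efna3 counts cannot be told apart from those of a transcript on the opposite strand, Gm15998, which had 51.7% as many counts, because the strand setting of the counting was not given in the sources used here. Efnb3 reached at most 9 counts and was not tested.

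Of the 14 Eph receptor tyrosine kinases 8 were tested, and 3 rose and 1 fell. Epha4, which binds both ephrin classes (ENSMUSG00000026235, mm10 chromosome 1, 77367185 to 77515088), stood at 7.07, 5.77, 6.30 and 6.50 CPM in EV and at 11.0, 13.3, 11.4 and 11.7 CPM in KO. The groups were far apart, and the gene rose 1.85-fold (6.41 ± 0.537 to 11.9 ± 0.982 CPM, SD, n = 4 each; log2 fold change 0.89 with SE 0.106, edgeR adjusted p = 3.5e-06). Epha7, a receptor for A-type ephrins, had 22.0, 22.4, 22.0 and 23.5 CPM in EV and 27.4, 29.3, 26.9 and 24.7 CPM in KO. KO replicate 4 came closest to the EV libraries but stayed above them (log2 fold change 0.27 with SE 0.0702, edgeR adjusted p = 0.00851).

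Of 4 tested B-type Eph receptors 1 rose and 1 fell. Ephb4, the venous receptor of Efnb2, had 135, 114, 122 and 109 CPM in EV and 132, 139, 136 and 132 CPM in KO. EV replicate 1 lay inside the KO range (log2 fold change 0.17 with SE 0.0571, edgeR adjusted p = 0.0360), and the call held when EV replicate 1 was left out and was lost without any other single library, with edgeR adjusted p up to 0.118. Ephb2, a receptor for B-type ephrins, had 33.8, 30.2, 35.2 and 29.2 CPM in EV and 26.0, 29.2, 25.7 and 26.9 CPM in KO. KO replicate 2 was level with EV replicate 4 (log2 fold change −0.25 with SE 0.0729, edgeR adjusted p = 0.0153), and the call was lost without EV replicate 3 or KO replicate 3 (adjusted p up to 0.0698). Epha2 had the highest level per gene length in the family, at 32.4 ± 1.37 FPKM in EV and 31.2 ± 1.06 FPKM in KO (SD, n = 4 each), with a 95% interval of the log2 fold change from −0.10 to 0.09. The other tested receptors, Ephb3 (107 ± 6.02 and 111 ± 1.99 CPM), Ephb6 (24.8 ± 1.77 and 25.3 ± 1.29 CPM) and Epha3 (2.01 ± 0.395 and 2.13 ± 0.418 CPM, each EV and KO), did not pass. Epha1 reached at most 11 counts, and its gene overlaps the much more abundant Zyx on the opposite strand. Epha5, Epha6, Epha8, Epha10 and Ephb1 had 0 counts in all 8 libraries, which allows up to 0.164 CPM in the shallowest of them.

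**Figure D3:**
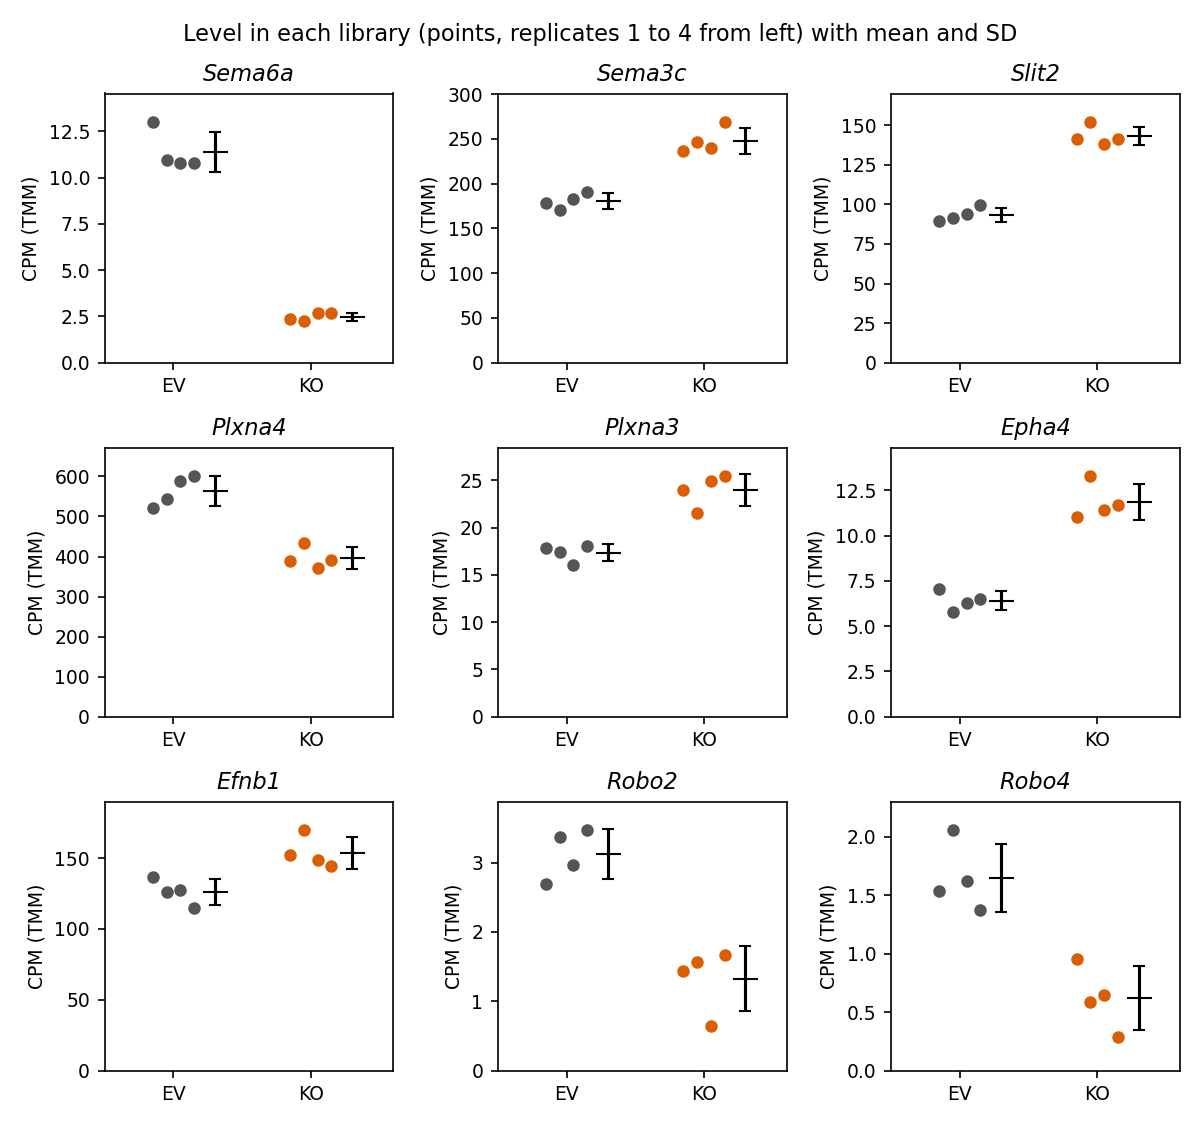
Level in each library (points, TMM-normalized CPM, y axis from 0) of 9 guidance genes in EV and KO, with the mean and SD of 4 libraries beside them. In all 9 panels the groups are separate, with Sema6a, Plxna4, Robo2 and Robo4 lower in KO and Sema3c, Slit2, Plxna3, Epha4 and Efnb1 higher.

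In the Slit and Robo system 1 of 2 tested ligands rose and 2 of 3 tested receptors fell. Slit2 (ENSMUSG00000031558, mm10 chromosome 5, 47983155 to 48306282) stood at 89.3, 91.5, 94.0 and 99.5 CPM in EV and at 141, 152, 138 and 141 CPM in KO. No library of either group approached the other group, and the gene rose 1.53-fold (93.6 ± 4.41 to 143 ± 5.95 CPM, SD, n = 4 each; log2 fold change 0.61 with SE 0.0487, edgeR adjusted p = 1.92e-08). Slit3 was the most abundant ligand per gene length of all 35, at 91.5 ± 2.53 FPKM in EV and 93.5 ± 2.39 FPKM in KO. In CPM it stood at 471 ± 13.4 in EV and 498 ± 12.2 in KO, and its log2 fold change of 0.08 had a 95% interval from −0.01 to 0.17. Slit1 reached at most 9 counts and was not tested.

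All Robo receptors were scarce. Robo2 (ENSMUSG00000052516, mm10 chromosome 16, 73892306 to 74411825) fell from 3.12 ± 0.362 to 1.33 ± 0.464 CPM (SD, n = 4 each; log2 fold change −1.24, edgeR adjusted p = 0.00063), on 49 to 77 counts per EV library and 15 to 40 per KO library, with KO replicate 3 lowest. Robo4 (ENSMUSG00000032125, mm10 chromosome 9, 37401897 to 37414023), a receptor best known from endothelium, fell from 1.65 ± 0.290 to 0.620 ± 0.272 CPM (log2 fold change −1.44, edgeR adjusted p = 0.00171), on 28 to 47 and 7 to 18 counts. Both were separate between the groups in all libraries. Over the 14 endothelial markers the summed level ran from 34.6 to 38.3 CPM in EV and from 26.8 to 30.1 CPM in KO, most of it Kdr (21.7 ± 1.11 and 14.6 ± 0.665 CPM), none of the 14 was at 0 in every library, and of 5 tested Kdr fell and Tek rose (3.89 ± 0.484 to 5.19 ± 0.280 CPM, edgeR adjusted p = 0.0298). Of the 14 genes, 6 were higher on average in KO. Among those not tested, Emcn stood at 0.449 ± 0.108 CPM in EV and 0.101 ± 0.0728 CPM in KO. Vwf went the other way, at 0.0952 ± 0.0664 CPM in EV and 0.268 ± 0.153 CPM in KO. The defining endothelial genes Cdh5, Pecam1, Tie1 and Cldn5 were each at or under 0.152 CPM on average in both groups. Robo1, the most abundant of the family per gene length at 0.435 ± 0.0755 FPKM in EV and 0.445 ± 0.0910 FPKM in KO, had a log2 fold change of 0.09 with a 95% interval from −0.30 to 0.48. Robo3 reached at most 17 counts and was not tested. Within a library the summed slit FPKM was 80.3 ± 4.04 times the summed Robo FPKM in EV and 142 ± 15.7 times in KO (SD, n = 4 each).

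Slit2 and Slit3 each carry in an intron the hairpin of a microRNA, miR-218, which earlier work names as a repressor of Robo1 and Robo2. In RefSeq on GRCm38.p6 the hairpins lie at chr5:48223942-48224051 in Slit2 and at chr11:35616816-35616925 in Slit3, both on the host gene's strand and clear of annotated exons. The mature sequence is shown because 1 host rose and 1 of those 2 receptors fell. Its seed, bases 2 to 8, is in capitals, and the match to that seed, AAGCACA, is in capitals in the 3′ UTR sites of Robo1, Robo2 and the receptor that lost the most FPKM, Plxna4 (GENCODE M21, GRCm38, the first site of each gene):
miR-218-5p: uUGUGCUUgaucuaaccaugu
Robo1, chr16:73045348-73045354, plus strand: tttggttttaaAAGCACAatcactaaact
Robo2, chr16:73895359-73895365, minus strand: tatttggtgatAAGCACAaatctctactc
Plxna4, chr6:32146788-32146794, minus strand: caattcccaggAAGCACAagctactcaca
The coordinates are those of the 7 capital letters. Robo1, with 1 such site, did not pass the test, while Robo2 and Plxna4, with 2 sites each, fell. Of the other tested guidance genes with 2 sites, Ephb2 and Sema6a fell, Slit2 rose and Ntn4 did not pass. Of the 48 tested guidance genes, 15 (31.2%) held the match in their longest annotated 3′ UTR, against 15.8% of 11416 tested genes with a 3′ UTR. The guidance genes also had longer 3′ UTRs, with a median of 1730.5 bases against 1225.0. The match was present in 5 of the 17 genes that rose and in 4 of the 8 that fell. Their 3′ UTRs were longer still, with medians of 3062 and 2795 bases. These letters were searched after the values of the genes were known, the microRNA was not measured in these libraries, and a match is a description of the sequence.

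None of 3 tested netrins and 2 tested Unc5 receptors passed in edgeR, in DESeq2 or in limma-voom, and at an edgeR p below 0.05 without adjustment the count was also 0. Ntn4, the netrin with the highest level per gene length, stood at 3.50 ± 0.0743 FPKM in EV and 3.03 ± 0.191 FPKM in KO (SD, n = 4 each). Its groups were separate in CPM (12.6 ± 0.250 against 11.2 ± 0.686 CPM), with a log2 fold change of −0.16, a 95% interval from −0.35 to 0.02 and an edgeR adjusted p of 0.201. Ntn1, the founding member of the family, was at 18.1 ± 0.950 and 17.7 ± 1.26 CPM (95% interval of the log2 fold change −0.21 to 0.13). Ntn3 had 10.4 ± 1.56 and 9.20 ± 0.700 CPM, but its gene shares bases of the same strand with Tbc1d24, which had 262% as many counts, so its level is uncertain. Ntn5 reached at most 5 counts and was not tested. Unc5b, a repulsive netrin receptor, was abundant at 52.1 ± 1.05 FPKM in EV and 50.2 ± 0.490 FPKM in KO, and its log2 fold change had a 95% interval from −0.09 to 0.08. Unc5c stood at 2.33 ± 0.812 and 1.96 ± 0.518 CPM and did not pass, and Unc5a and Unc5d had 0 counts in every library.

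Across the 48 tested genes, the CPM of EV and KO did not overlap for 25, against 26.5% of all tested genes. These were 21 of the 25 genes that passed, together with Sema3b, Efna1, Ntn4 and Plxnb1, which did not. The 4 genes that passed with overlapping groups were Sema3a, Plxna1, Ephb2 and Ephb4. Calls that held in every alternative in which the gene was tested numbered 13: the ligands Slit2, Sema3c, Sema4b and Efnb1 and the receptors Epha4, Plxna3 and Plxnb3 higher, and the ligands Sema6a, Sema6d and Efna2 and the receptors Plxna4, Robo2 and Robo4 lower. By that stricter reading, 4 ligands and 3 receptors rose and 3 ligands and 3 receptors fell. The 13 genes were 27.1% of the 48 tested and 52.0% of the 25 called, and over all genes 1578 calls held in the same way, 12.3% of those tested and 47.5% of those called.

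Summed over each library, ligand transcripts outweighed receptor transcripts, and more so in KO. The summed FPKM of the 35 ligands was 420.1, 415.4, 420.0 and 424.2 in EV and 443.6, 454.8, 437.7 and 452.3 in KO. For the 31 receptors the sums were 389.7, 377.7, 390.0 and 387.6 in EV and 363.5, 377.3, 361.8 and 364.2 in KO. The ratio of ligands to receptors, which does not depend on how libraries are scaled, was 1.078, 1.100, 1.077 and 1.095 in EV and 1.220, 1.205, 1.210 and 1.242 in KO. All KO ratios lay above all EV ratios. After TMM scaling the ligand sums were still separate (413 ± 5.52 in EV and 455 ± 7.33 in KO, SD, n = 4 each), whereas the receptor sums overlapped (379.8 ± 8.44 and 373 ± 6.17). The size of the difference depended on single abundant genes. Without Plxnb2 the ratio was 1.67 ± 0.0243 in EV and 1.88 ± 0.0344 in KO, without Plxna4 it was 1.23 ± 0.0199 in EV and 1.33 ± 0.0169 in KO, and without Plxna4, Sema3c and Slit2 it was 1.09 ± 0.0152 and 1.14 ± 0.0107. These genes were left out after their values were seen, and no test was made on the sums.

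**Figure D4:**
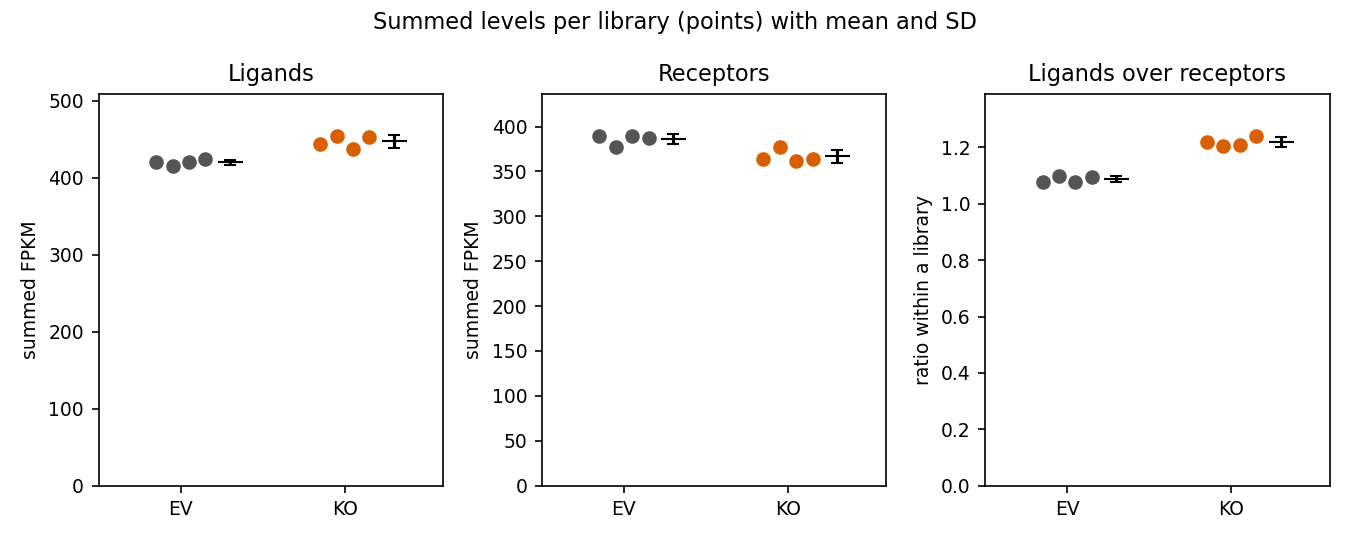
Summed FPKM of 35 ligand genes (left) and 31 receptor genes (middle) and the ratio of the sums within a library (right), with all y axes starting at 0. Points are the 4 EV and 4 KO libraries, and bars give the mean and SD. The ratios lie between 1.077 and 1.100 in EV and between 1.205 and 1.242 in KO.

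The genes that act with these ligands and receptors inside and at the surface of the cell passed at a rate closer to that of all genes. A list of 112 co-receptors, modulators and effectors gave 98 tested rows, of which 15 rose and 16 fell (31.6% in all), with a median log2 fold change of −0.027. Of 10 tested co-receptors and other receptors, 4 rose and 3 fell (70% in all). That share was above the 52.1% of the guidance genes and the 26.0% of all tested genes. Sdc3, a heparan sulfate proteoglycan, had 5.53, 5.94, 5.83 and 5.79 CPM in EV and 11.7, 13.6, 12.6 and 10.6 CPM in KO, a 2.09-fold rise with separate groups (log2 fold change 1.07 with SE 0.107, edgeR adjusted p = 4.08e-07). Nrp1, the neuropilin that binds Sema3a, had 82.2, 85.3, 84.6 and 83.5 CPM in EV and 99.6, 107, 101 and 105 CPM in KO, again with separate groups (log2 fold change 0.30 with SE 0.0458, edgeR adjusted p = 7.42e-05). Kdr, a Vegf receptor that also takes part in semaphorin signalling, fell 1.49-fold (log2 fold change −0.58 with SE 0.0764, edgeR adjusted p = 1.32e-05).

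In 2 of the effector lists more genes fell than rose. Of the Eph and ephrin effectors 16.7% were higher and 27.8% lower, and of the netrin effectors 10% and 40%. Over all tested genes 12.6% were higher and 13.4% lower. Among 18 tested effectors of Eph receptors and ephrins 3 rose and 5 fell, among them Kalrn, a guanine nucleotide exchange factor, with 107 ± 4.52 CPM in EV and 72.4 ± 2.47 CPM in KO (log2 fold change −0.57 with SE 0.0489, edgeR adjusted p = 4.88e-08). Among 10 tested netrin effectors 1 rose and 4 fell, among them the actin-binding gene Ablim1 (87.0 ± 3.28 to 69.8 ± 0.769 CPM; log2 fold change −0.32 with SE 0.0476, edgeR adjusted p = 5.33e-05). Of 14 tested Slit and Robo effectors 1 rose, Myo9b, a motor protein that binds Robo1 (109 ± 4.71 to 129.8 ± 4.72 CPM; log2 fold change 0.26 with SE 0.0473, edgeR adjusted p = 0.00044), and 1 fell. Of 20 tested rows of plexin and semaphorin effectors 2 rose and 2 fell. Mical3 held 2 of these rows. That at 33.8 CPM in EV fell (edgeR adjusted p = 0.0123), and that at 84.7 CPM in EV did not pass (edgeR adjusted p = 0.0813). Of 12 other ligands and modulators 2 rose and 1 fell, and of 14 cytoskeletal GTPases and kinases 2 rose. The split was scaling-dependent: with library totals alone, 9 genes of all these lists rose and 27 fell, against 1039 and 2414 over all genes. The difference between the lists was not tested.

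Several of the genes lie close together, and neighbours did not always move alike. On chromosome 5, Sema3a and Sema3e are 423 kb apart and both rose, while Sema3d, 808 kb from Sema3a, did not pass. On chromosome X, Plxnb3 and Plxna3 are 557 kb apart and both rose. On chromosome 16, Robo2 fell and Robo1, 846 kb away, had a log2 fold change of 0.09. The ephrin genes Efna1, Efna3 and Efna4 on chromosome 3 lie 32.8 and 10.4 kb apart in that order, and none of the 3 passed.

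RefSeq promoter windows were found for 57 of the 66 genes. In the 250 bases before the start, on either strand, 17.5% of these held the nuclear receptor element AGGTCA, against 15.8% of 27025 genes. The AP-1 site TGANTCA was in 5.26% against 7.82%, and CACCTG, the E-box of Snail and Zeb repressors, in 17.5% against 19.4%. A match describes the letters only. The windows of Slit2, the ligand that rose most, and of Robo4, the receptor with the largest fall, are shown because they differ in base composition (70.4% and 47.4% G and C). The Robo4 window holds 1 AGGTCA, in capitals, and the Slit2 window holds none of the 3 motifs. Both are on the plus strand of GRCm38.p6, cut before the first annotated exon:
Slit2, chr5:47982905-47983137: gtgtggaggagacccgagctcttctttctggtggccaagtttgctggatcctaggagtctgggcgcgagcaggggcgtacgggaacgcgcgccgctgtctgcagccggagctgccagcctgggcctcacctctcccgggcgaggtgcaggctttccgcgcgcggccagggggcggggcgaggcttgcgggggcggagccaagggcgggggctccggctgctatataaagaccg
Robo4, chr9:37401722-37401896: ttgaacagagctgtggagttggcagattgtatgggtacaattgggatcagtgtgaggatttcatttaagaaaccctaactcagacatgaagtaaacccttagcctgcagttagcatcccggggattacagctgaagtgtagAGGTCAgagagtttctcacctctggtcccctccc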

How the data were processed

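RNA of a mouse epicardial cell line was sequenced in 4 EV and 4 KO libraries. Raw counts for 35275 rows and a second table with FPKM values were deposited by the authors. The deposited FPKM equal counts divided by gene length and library total for 100% of nonzero values (within 1e-06), so they hold no correction for composition. The build mm10 and DESeq 1.6.3 are named in the submitters' processing notes, and the series design text names DESeq2. Aligner, counter, annotation and strand were not given in the sources used here.

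Counts were tested with edgeR 4.0.16 in R 4.3.3: TMM, filterByExpr (minimum count 10, minimum total 15), quasi-likelihood F test, two-sided, Benjamini-Hochberg over 12801 genes, threshold 0.05. Levels are TMM-normalized CPM with SD over 4 libraries. The standard error is the absolute log2 fold change over the square root of F, and intervals are at 95%. Library totals were 18063745 to 24564892, no replicate pair agreed within sampling noise (chi-square per degree of freedom 4.01 to 13.2), and the biological coefficient of variation was 6.41%. The script was tested on simulated data with known changes, where few genes changed and every gene had the same biological coefficient of variation. That setting is simpler than these data, so the run checked the code and did not measure how reliable these calls are. Floors of counts cover counting error only.

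The genes, the 7 pathway lists and the 7 marker lists were chosen with earlier results of these data known. Every gene of the rule is accounted for: genes that passed with at least 5 CPM in the higher group by library, others that passed as mean and SD, the highest FPKM of each family, and the rest by range or highest count. Of other pathway genes the 3 smallest adjusted p-values in each direction are named. Alternatives were DESeq2 1.42.0, limma-voom (limma 3.58.1), other scaling and count filters, limma on the authors' FPKM as log2(FPKM + 1) and log2(FPKM + 0.1), filtered at 0.5 FPKM in 4 libraries or unfiltered, a replicate block, and fits without single libraries or without KO replicates 2 and 3. Sequences came from RefSeq and GENCODE M21. No promoter entry was used for Efnb3, Ntn1, Plxna1, Plxna4, Sema3b, Sema3f, Sema6a, Slit1 and Unc5d.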

Additional observations from a re-analysis of the deposited data

Results flagged for a closer look

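In 5 of 98 groups of 4 libraries, 1 library stood apart from the other 3 by most of the group's range, where chance gives about 1 group in 20. For Sema6a, EV replicate 1 was at 12.99 CPM and the other EV libraries at 10.77 to 10.97 CPM. For Sema6d, EV replicate 4 was at 68.04 CPM and the others at 52.40 to 53.74 CPM. For Sema3f, KO replicate 2 was at 191.3 CPM and the others at 214.4 to 215.5 CPM. For Plxnb1, KO replicate 4 was at 82.72 CPM and the others at 87.33 to 87.60 CPM. For Plxnb3, KO replicate 1, whose characteristics name the empty vector, was at 1.221 CPM and the others at 1.811 to 1.912 CPM. The calls of Sema6a, Sema6d and Plxnb3 held without each of these libraries.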

How the results depend on the processing

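DESeq2, limma-voom, DESeq2 size factors in edgeR and the other filters on counts kept every count of calls within 1.5 times. With library totals alone, 1039 of all genes, 11 guidance genes, 4 receptors and 9 other pathway genes rose and 27 pathway genes fell. In log2(FPKM + 1), log2(FPKM + 0.1) and log2(FPKM + 1) unfiltered, 896, 897 and 766 of all genes, 8, 8 and 7 guidance genes, 6, 6 and 4 ligands, 2, 2 and 3 receptors and 6, 6 and 6 pathway genes rose. Without KO replicates 2 and 3, 880 of all genes rose and 1094 fell, 9 guidance genes, 6 ligands, 3 receptors and 8 pathway genes rose and 10 pathway genes fell. Leaving out 1 library, 11 to 16 guidance genes rose (11 without EV replicate 3 or KO replicate 2), 4 to 6 receptors rose (4 without EV replicate 3 and without KO replicate 1 or 2) and 10 to 18 pathway genes fell (10 without KO replicate 3). These fits have fewer libraries.

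Of the 25 calls, 13 held in every alternative that tested the gene, 8 were lost without some single library, and 4 (Efna5, Epha7, Sema3a and Sema5a) were lost only in FPKM or without KO replicates 2 and 3. Direction turned only for genes that did not pass, and the cause was not tested. With library totals alone, log2(FPKM + 1), log2(FPKM + 0.1) and log2(FPKM + 1) unfiltered, Ephb3 was at −0.0043, −0.0032, −0.0032 and −0.0032, Ephb6 at −0.018, −0.016, −0.018 and −0.016, and Plxnd1 at −0.030, −0.029, −0.030 and −0.029. Without KO replicates 2 and 3, Epha2 was at 0.0076, Sema3f at 0.025, Ephb6 at −0.026 and Epha3 at −0.021. With 1 library left out, log2 fold changes of both signs were seen for Epha2 (−0.025 to 0.024), Epha3 (−0.065 to 0.20), Sema6c (−0.076 to 0.21), Plxnb2 (−0.034 to 0.0016), Unc5b (−0.021 to 0.0022), Robo1 (−0.031 to 0.22), Ephb6 (−0.012 to 0.061), Sema3f (−0.036 to 0.026) and Ntn1 (−0.074 to 0.0091). With the replicate block, 18 guidance genes rose and 7 fell, and over all genes 1879 rose and 1858 fell. Efna1 then passed (edgeR adjusted p = 0.0367) and Sema4g did not (edgeR adjusted p = 0.0568). The numbers were not taken to pair the libraries, since not every same-numbered pair correlated above 0.1: the deviations from the group means correlated at 0.18, −0.0496, 0.107 and 0.178, and 3 of 4 EV libraries correlated best with the KO library of their own number. Of the 18 untested genes 8 had 0 counts in every library.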
